A study of Mus musculus with 8 samples.

Results

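miR-3473b and miR-3473e are mouse microRNAs (miRNAs) of near-identical sequence that stood far higher in exosomes from cerebrospinal fluid (CSF) than in exosomes from plasma. They were chosen by name from the deposited miRNA tables, because of that contrast, and are 2 of the 1960 miRNAs listed in both fluids (1961 in CSF and 1977 in plasma). The study profiled small RNA of exosomes, membrane-bound particles shed by cells, from adult wild-type mice of both sexes. DOCA-salt mice had received the mineralocorticoid deoxycorticosterone acetate with salt, an established way to raise blood pressure in rodents, and baseline mice had received no treatment. There was 1 library for each combination, so the 8 libraries were CSF and plasma of DOCA-salt females, baseline females, DOCA-salt males and baseline males. All 8 carry the same batch label, and the labels do not say which mice, or how many, gave each library.

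miRNAs are short RNAs that guide Argonaute proteins to messenger RNAs, mainly by pairing through the seed, bases 2 to 8 counted from the 5′ end. Several miRNAs of the miR-3473 family resemble the start of B2 elements, short retrotransposons transcribed by RNA polymerase III and spread through the introns and untranslated regions of rodent genes. In mice, miR-3473b has been studied in microglia and in brain inflammation after stroke, where Socs3, an inhibitor of cytokine signalling, was reported as a target. The place of miR-3473e in any tissue is much less studied.

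The mature sequences are shown because the near-identity of the members bears on every value that follows. They are from RefSeq on GRCm38.p6, with the seed in capitals.
miR-3473b: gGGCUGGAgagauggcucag
miR-3473e: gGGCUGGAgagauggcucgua
miR-3473a: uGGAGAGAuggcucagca
The first 18 bases of miR-3473b and miR-3473e are the same, and they differ only in the last 2 bases of the 20-base miR-3473b and the last 3 bases of the 21-base miR-3473e. Both therefore carry the seed GGCUGGA, which no other listed miRNA with a RefSeq sequence carried (1675 of the 1960 were matched). miR-3473a lacks the first 4 bases and shares a run of 16 with miR-3473b, so its seed is a different one. Among the matched miRNAs, miR-3473a was the only other one to share a run of at least 12 bases with either member.

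The members come from separate loci and from hairpins that have little else in common. On GRCm38, miR-3473b lies at chr10:41670774-41670793 on the plus strand, inside an intron of Ccdc162 that runs on the opposite strand. miR-3473e lies at chr5:31667296-31667316 on the minus strand, inside an intron of Rbks, which encodes ribokinase and runs on the same strand, and an intron of Gm43809 on the opposite strand. The annotated hairpins are shown with the mature miRNA in capitals, because the same 18 bases sit in very different surroundings.
mir-3473b hairpin: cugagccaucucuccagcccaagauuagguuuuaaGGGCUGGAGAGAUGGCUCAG
mir-3473e hairpin: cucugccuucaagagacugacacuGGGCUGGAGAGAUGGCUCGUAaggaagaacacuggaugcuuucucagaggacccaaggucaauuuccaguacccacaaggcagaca
In the 55-base hairpin of miR-3473b (chr10:41670739-41670793), bases 1 to 20 are the exact reverse complement of the mature miRNA at bases 36 to 55. The predicted folding energy was -42.5 kcal/mol, or -0.77 per base. The hairpins of 1577 listed mature miRNAs were folded in the same way, each hairpin entered once for each of its listed mature miRNAs. Of these 1577 entries, 0.254% had a lower energy per base. In the 110-base hairpin of miR-3473e (chr5:31667231-31667340), the longest run complementary to the mature miRNA was 5 bases. Its predicted energy was -34.7 kcal/mol, or -0.32 per base. Of the 1577 entries, 85.0% had a lower energy per base, and their median was -0.41. All of the mature bases of miR-3473b were paired in the predicted fold (100%), against 57.1% of those of miR-3473e. The median over the 1577 mature miRNAs was 81.0%, and 1.78% of them had a smaller paired share than miR-3473e.

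The sequence of miR-3473b also occurs in many other spliced transcripts, and that of miR-3473e in none of those searched. The genome, with its introns, was not searched. GENCODE M21 held 141767 transcripts of 55450 genes, totals that include annotated miRNA transcripts, which were not searched. The whole mature sequence of miR-3473b was found on the sense strand of transcripts of 344 genes, 114 of them with protein-coding transcripts. That was the second highest of the 1675 miRNAs searched, behind the 546 genes of miR-3470b, and 79.3% of miRNAs were found in no such gene. The shared 18-base run occurred in transcripts of 402 genes in sense and of 438 genes in antisense, whereas the whole of miR-3473e occurred in 0. miR-3473a was found in transcripts of 146 genes. A short read that ends within the shared bases fits both members and these other transcripts. How the submitters' alignment placed such reads is not given in the sources used here, so a count in either row is a count of reads assigned to that row.

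In CSF, both members were among the most abundant miRNAs. miR-3473b had 4091 unique molecular identifiers (UMIs, which count tagged molecules once) in DOCA-salt females, 5194 in baseline females, 2823 in DOCA-salt males and 4881 in baseline males, against 74, 57, 91 and 38 UMIs in plasma of the same groups. miR-3473e had 4016, 5251, 2764 and 4764 UMIs in CSF and 54, 29, 48 and 12 in plasma, in the same order of groups. The lowest CSF count of a member was 2764 UMIs and the highest plasma count 91, so the fluids did not overlap in any group.

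As CPM, the UMI count scaled to a fixed library total, miR-3473b stood at 13474, 21835, 2608 and 6481 in CSF and at 219, 204, 299 and 240 in plasma, for DOCA-salt females, baseline females, DOCA-salt males and baseline males. miR-3473e stood at 13227, 22074, 2553 and 6325 CPM in CSF and at 160, 104, 158 and 75.7 CPM in plasma. Baseline females had the highest CSF level and DOCA-salt males the lowest for both members. The mean level of miR-3473b was 11099 ± 8452 CPM in CSF and 240 ± 41.6 CPM in plasma, and that of miR-3473e was 11045 ± 8579 CPM in CSF and 124 ± 41.6 CPM in plasma (SD over 4 libraries per fluid that differ in sex and treatment). Within its library, miR-3473b ranked between 10 and 30 in CSF and between 272 and 331 in plasma. miR-3473e ranked between 9 and 31 in CSF and between 385 and 913 in plasma.

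**Figure D1:**
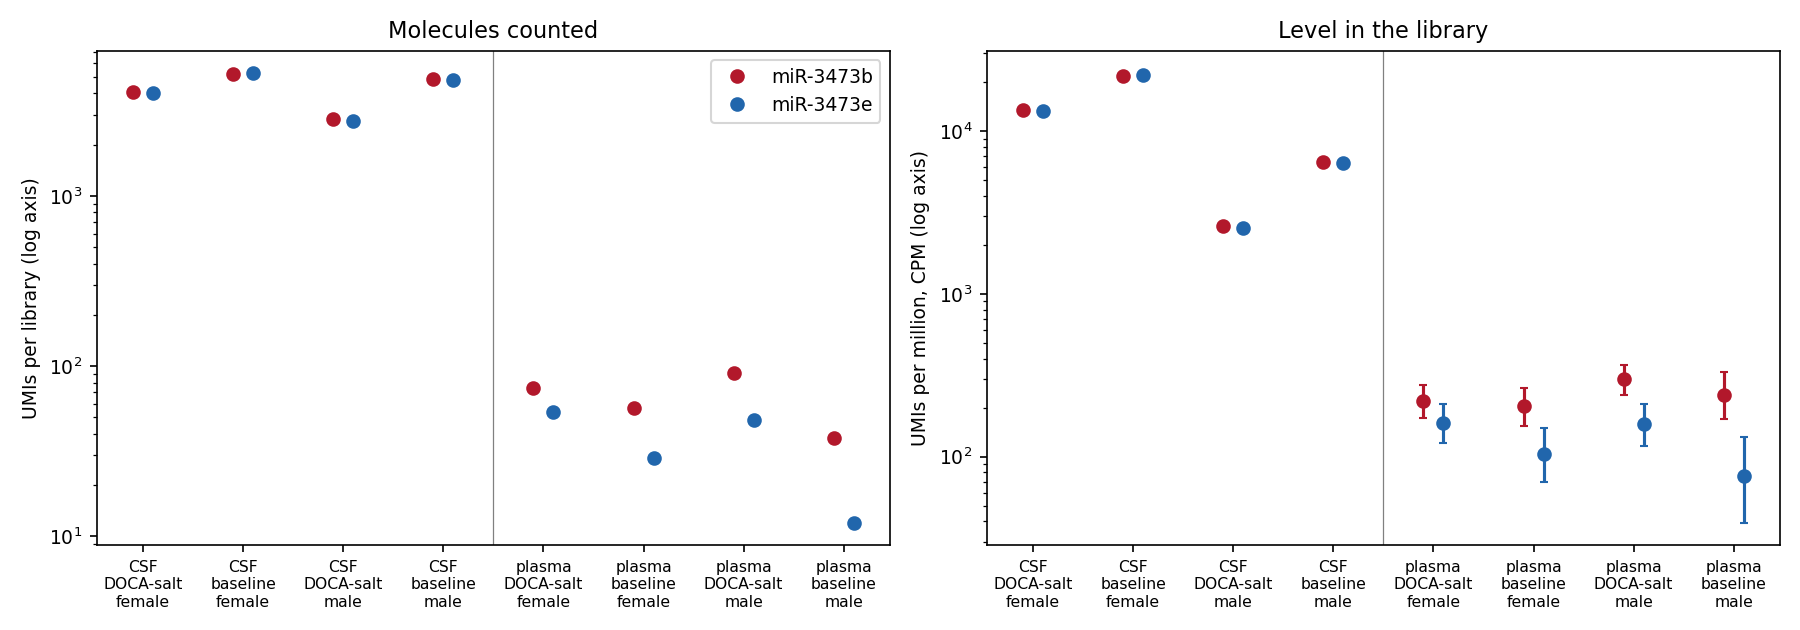
UMIs per library (left panel) and CPM (right panel) of miR-3473b and miR-3473e, both on log axes, 1 point per library and miRNA, with exact 95% intervals for counting error on the CPM. Every CSF point (2553 to 22074 CPM) lies above every plasma point (75.7 to 299 CPM), and the members nearly coincide in CSF.

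The difference between fluids chose these miRNAs, so it is given as a description without a test. The CSF over plasma ratio of the CPM of miR-3473b was 61.4 in DOCA-salt females, 107 in baseline females, 8.73 in DOCA-salt males and 27.0 in baseline males. That of miR-3473e was 82.6, 213, 16.2 and 83.6 in the same groups. The ratios were smallest in DOCA-salt males and largest in baseline females for both members. Of the 732 miRNAs with a mean of at least 20 UMIs, 41 (5.60 percent) had all 4 CSF libraries above all 4 plasma libraries in CPM, these members among them, and after scaling by the trimmed mean of M-values (TMM) 216 (29.5 percent) did, again with both members. With TMM scaling, the mean log2 level differed between CSF and plasma by 6.74 for miR-3473b and by 7.69 for miR-3473e, against a median of -0.14 over all miRNAs. With scaling to the library total, the differences were 5.13 and 6.10 and the median was -1.68. In vesicle RNA from a fluid, more vesicles that carry a miRNA and more copies per vesicle cannot be told apart.

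In CSF, the counts of miR-3473b and miR-3473e were nearly the same in every library. miR-3473b exceeded miR-3473e by 75 UMIs in DOCA-salt females, 59 in DOCA-salt males and 117 in baseline males, and the difference in baseline females was -57 UMIs. The gap was at most 2.46% of the counts. miR-3473b made up 50.5% of the UMIs of both members in DOCA-salt females (exact Clopper-Pearson 95% interval 49.4 to 51.6), 49.7% in baseline females (48.8 to 50.7), 50.5% in DOCA-salt males (49.2 to 51.8) and 50.6% in baseline males (49.6 to 51.6). All 4 intervals hold an equal split, and they cover counting error only.

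In plasma, miR-3473b had the higher count in every library. It made up 57.8% of the UMIs of both members in DOCA-salt females (48.8 to 66.5), 66.3% in baseline females (55.3 to 76.1), 65.5% in DOCA-salt males (56.9 to 73.3) and 76.0% in baseline males (61.8 to 86.9). The plasma shares all lay above the CSF shares, although the interval in DOCA-salt females reaches below an equal split. Reads, counted before identifiers were collapsed, gave a share of miR-3473b of 49.7% to 50.7% in CSF libraries and of 53.2% to 68.9% in plasma libraries.

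**Figure D2:**
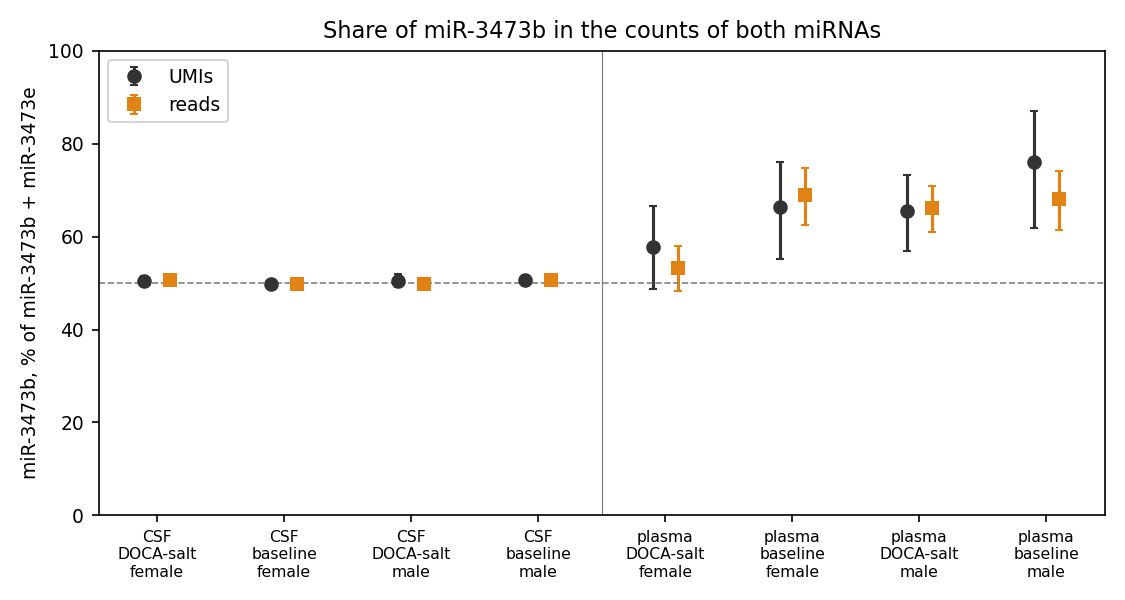
Share of miR-3473b in the counts of miR-3473b and miR-3473e together, in percent, for UMIs (circles) and reads (squares) in each library, with exact 95% intervals for counting error and a dashed line at an equal split. By UMIs the CSF points sit between 49.7% and 50.6%, and the plasma points between 57.8% and 76.0% with wider intervals.

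Equal counts in all 4 CSF libraries were rare. Of all pairs among the 360 miRNAs with at least 20 UMIs in each CSF library, 3 pairs stayed within 5% of each other in every CSF library. They were miR-3473b with miR-3473e, miR-199a-3p with miR-199b-3p, and miR-486a-5p with miR-486b-5p, and the partners in the other two pairs are miRNAs of the same or nearly the same mature sequence. Whether the same reads were counted for both members was not tested, since the deposited tables hold no reads. With counts this close, every CSF value of one member is nearly that of the other. Together they took 2.67% of all UMIs in DOCA-salt females, 4.39% in baseline females, 0.516% in DOCA-salt males and 1.28% in baseline males in CSF, and 0.0307% to 0.0456% in plasma.

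The UMI counts of the members varied much less across CSF libraries than the library totals did. CSF totals were 303625 UMIs in DOCA-salt females, 237878 in baseline females, 1082504 in DOCA-salt males and 753144 in baseline males, a 4.55-fold range. The counts of miR-3473b varied 1.84-fold and those of miR-3473e 1.90-fold, and the lowest count of each was in the library with the highest total. Their CPM varied 8.37-fold and 8.65-fold and was lower at each step up in library total, and with TMM scaling the ranges were 3.71-fold and 3.83-fold. Of 542 miRNAs with a mean of at least 20 UMIs in CSF, 27 (4.98%) had their lowest count in the library with the highest total, and 72 (13.3%) had a CPM that was lower at each step. In plasma, where totals ran from 158572 to 337240 UMIs, the CPM of miR-3473b varied 1.47-fold and that of miR-3473e 2.12-fold.

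**Figure D3:**
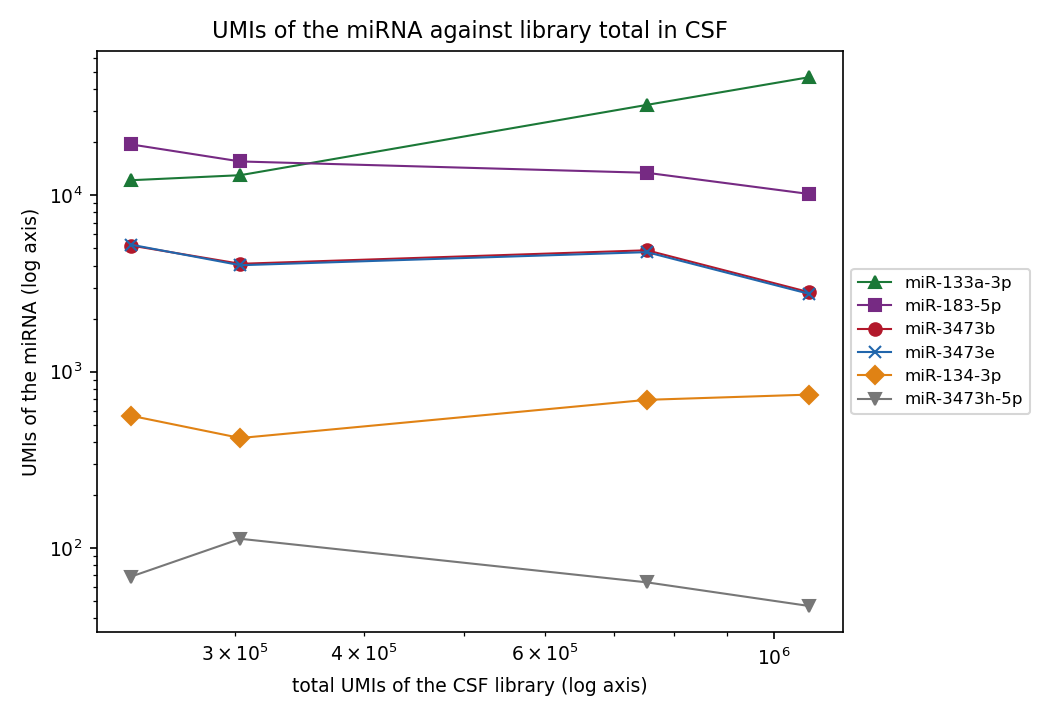
UMIs of miR-3473b, miR-3473e and 4 other named miRNAs in each CSF library against the total UMIs of that library, both on log axes, 1 point per library with lines joining the points of a miRNA. The members, whose points overlie each other, lie between 2764 and 5251 UMIs while the totals run from 237878 to 1082504.

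Other miRNAs moved across the same libraries. The 4 striated muscle markers, all measured and none at 0, summed to 36.3% of CSF UMIs in DOCA-salt females, 38.7% in baseline females, 49.1% in DOCA-salt males and 56.6% in baseline males, against 0.276% to 1.49% in plasma. With these markers taken out of the totals, the CPM of miR-3473b in CSF was 21141 in DOCA-salt females, 35615 in baseline females, 5125 in DOCA-salt males and 14936 in baseline males, a 6.95-fold range. The sensory and other epithelium markers miR-183-5p and miR-200c-3p summed to 5.13%, 8.18%, 0.943% and 1.79% of CSF UMIs in the same order of groups, and to 0.0590% to 0.400% in plasma. In CSF nearly all of this sum was miR-183-5p, with 15561, 19436, 10177 and 13421 UMIs. In plasma miR-183-5p was the smaller part, with 117, 66, 279 and 44 UMIs, and the rest was miR-200c-3p. The 2 markers thus went opposite ways between the fluids. The order of the sum over the CSF libraries, which is that of the members' CPM, is the order of miR-183-5p. The neuron markers summed to 0.0924% to 0.183% in CSF and 0.0148% to 0.0397% in plasma, the choroid plexus markers to 0.0227% to 0.0376% and 0.00979% to 0.0189%, the red cell markers to 0.354% to 0.613% and 1.64% to 3.74%, the leukocyte markers to 0.365% to 0.548% and 2.57% to 2.90%, and the liver marker to 0.0265% to 0.0809% and 0.208% to 0.404%. No marker of these lists was at 0 in a fluid, and the part of any of these tissues in the members' levels was not tested.

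Each molecule of the members was read fewer times than was usual in its library. In CSF, miR-3473b had 1.13 reads per UMI in DOCA-salt females, 1.20 in baseline females, 1.48 in DOCA-salt males and 1.27 in baseline males, against library medians of 1.22, 1.32, 1.89 and 1.49. In plasma it had 3.19, 2.75, 2.76 and 3.92, against medians of 5.14, 4.70, 4.05 and 7.19. miR-3473e had 1.13 to 1.52 reads per UMI in CSF and 2.45 to 5.83 in plasma. Both members lay under the library median in all 8 libraries, between the percentiles 4.16 and 23.7.

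The comparison of DOCA-salt with baseline asks whether the treatment changed the members in either fluid, and it did not use the contrast that chose them. In CSF, the level of miR-3473b in DOCA-salt mice was below that in baseline mice in both sexes, with a log2 ratio of CPM of -0.70 in females (exact interval -0.76 to -0.64) and of -1.31 in males (-1.38 to -1.25). miR-3473e had log2 ratios of -0.74 in females (-0.80 to -0.68) and of -1.31 in males (-1.38 to -1.24). These intervals compare 1 library with 1 other and cover counting error only. Of 732 miRNAs, 223 (30.5 percent) were below baseline in both CSF pairs. In each sex the DOCA-salt library was also the one with the higher CSF total, so treatment and library total cannot be told apart here either. The summed sensory and other epithelium markers, in CSF nearly all miR-183-5p, also took smaller shares in the DOCA-salt CSF libraries. They took 5.13% against 8.18% at baseline in females and 0.943% against 1.79% in males, and their part in these ratios was not tested.

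Across the 4 CSF libraries, with sex as a covariate, edgeR's quasi-likelihood test gave a log2 fold change of -0.93 ± 0.47 (SE) for miR-3473b with an adjusted p of 0.576. For miR-3473e it gave -0.95 ± 0.47 with an adjusted p of 0.570 in the same edgeR fit. Neither member passed the threshold of 0.05 on the Benjamini-Hochberg adjusted p, against 0.193 percent of the 1036 miRNAs tested, and the median over all of them was 0.01. At an unadjusted p under 0.05 there were 89 of the 1036, both members among them. Since their CSF counts are nearly the same, the 2 members are not independent of each other there. This fit has 1 residual degree of freedom, and its error rests on a spread pooled over all miRNAs (1036 total degrees of freedom). The members' own spread between libraries had practically no separate weight. Without the DOCA-salt male library, and with treatment as the only term, the fold changes were -0.35 and -0.37.

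In plasma, the levels in DOCA-salt mice were above those in baseline mice. The log2 ratio of CPM of miR-3473b was 0.11 in females (-0.41 to 0.63) and 0.32 in males (-0.24 to 0.90), both within counting error. That of miR-3473e was 0.63 in females (-0.05 to 1.33) and 1.06 in males (0.12 to 2.11), on counts of 54 against 29 and of 48 against 12 UMIs. Of 732 miRNAs, 189 (25.8 percent) were above baseline in both plasma pairs. edgeR's quasi-likelihood test gave 0.37 ± 0.46 for miR-3473b (adjusted p = 0.779) and 0.98 ± 0.42 for miR-3473e (adjusted p = 0.266). Neither passed, against 1.07 percent of 1398 miRNAs tested, with a median of -0.03. With 1 entry for both members, holding the larger count in each library, the value was 0.37. Of the 2 members, miR-3473e was among the 192 of 1398 miRNAs at an unadjusted p under 0.05.

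**Figure D4:**
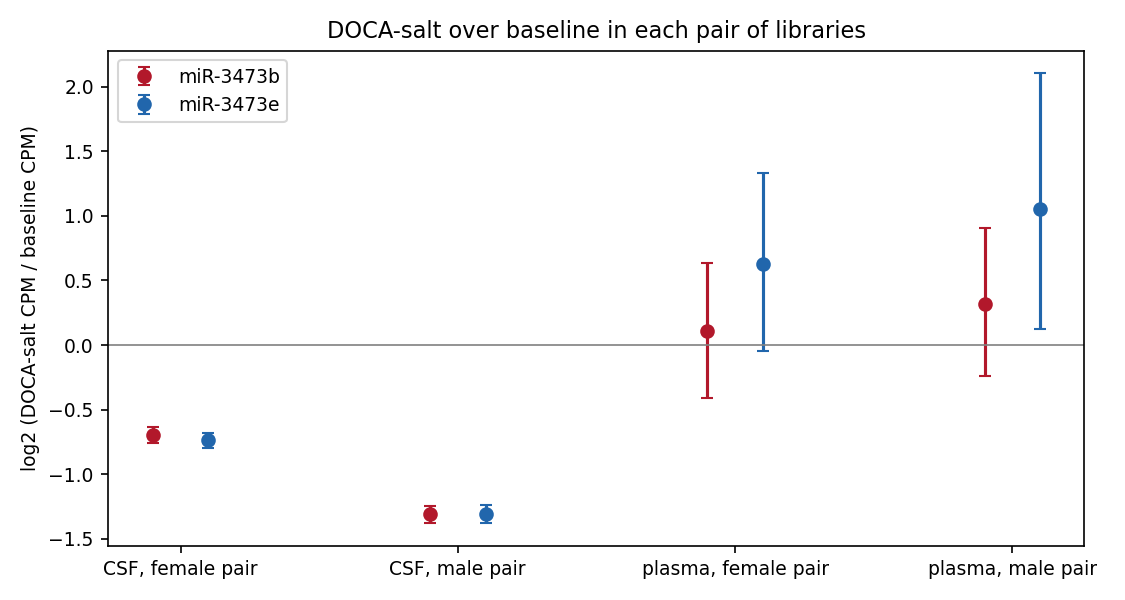
Log2 ratio of CPM, DOCA-salt over baseline, for miR-3473b and miR-3473e within each sex and fluid, with exact 95% intervals that cover counting error only. The CSF ratios lie between -1.31 and -0.70, and the plasma ratios between 0.11 and 1.06.

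The treatment ratios had opposite signs in the fluids for both members, in both sexes. Of 732 miRNAs, 58 (7.92 percent) were below baseline in both CSF pairs and above it in both plasma pairs. The difference of the DOCA-salt effect, CSF minus plasma, was -1.37 ± 0.66 on the log2 scale for miR-3473b (adjusted p = 0.631) and -2.00 ± 0.69 for miR-3473e (adjusted p = 0.478), from the interaction term of edgeR's quasi-likelihood fit over all 8 libraries. With 1 entry for both members it was -1.38. Neither passed, and 0 of the 1465 miRNAs tested did. At an unadjusted p under 0.05 there were 113 of the 1465, again with both members, and DESeq2's Wald test called 1.

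Levels in males were below those in females in CSF. The log2 ratio of CPM, male over female, was -2.37 in DOCA-salt and -1.75 in baseline mice for miR-3473b, and -2.37 and -1.80 for miR-3473e. Male libraries were also the CSF libraries with the higher totals, so sex and library total cannot be told apart here, and 567 of 732 miRNAs (77.5 percent) were below the female level in both CSF pairs. With TMM scaling, edgeR's quasi-likelihood test gave -0.92 ± 0.47 for miR-3473b (adjusted p = 0.283) and -0.95 ± 0.47 for miR-3473e (adjusted p = 0.255). Neither passed, against 5.21 percent of 1036 miRNAs tested, with a median of -0.06. Both were among the 182 of these 1036 at an unadjusted p under 0.05. With scaling to the library total, both passed edgeR's test, at -2.06 and -2.09 (adjusted p = 0.0234 each), but the median of all miRNAs was then -1.19 and 328 passed, 322 of them lower in males. Over the other alternatives, including each library left out, the adjusted p of edgeR or DESeq2 ran from 0.227 to 0.980. Without the DOCA-salt male library, and with sex as the only term, the TMM-scaled fold changes were -0.31 and -0.34.

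In plasma, the log2 ratios of male over female CPM were small or of mixed direction. That of miR-3473b was 0.44 in DOCA-salt and 0.23 in baseline mice, and that of miR-3473e was -0.02 and -0.45. edgeR's quasi-likelihood test gave -0.02 ± 0.46 for miR-3473b (adjusted p = 0.991) and -0.56 ± 0.42 for miR-3473e (adjusted p = 0.853), and the sign for miR-3473b was positive with scaling to the library total (0.34). Neither passed, against 0.143 percent of 1398 miRNAs tested.

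The miR-3473 family has 8 listed members, and how the other 6 compared between fluids depended on the scaling. In CPM, miR-3473b and miR-3473e were the 2 of 8 with all CSF libraries above all plasma libraries, as had 41 of 732 miRNAs (5.60 percent). With TMM scaling miR-3473c, miR-3473f and miR-3473h-5p separated in the same direction, 5 of 8 in all, against 216 of 732 (29.5 percent). In CPM, miR-3473a, miR-3473d and miR-3473g had all CSF libraries below all plasma libraries, as did 401 of 732 miRNAs (54.8 percent), and with TMM scaling miR-3473g alone did, against 176 of 732 (24.0 percent). Among all miRNAs, the separation of the fluids was therefore not particular to miR-3473b and miR-3473e in either scaling. Within the family it was particular to them in CPM but not with TMM scaling. These 2 members nevertheless had the highest CSF levels of the 8 in both scalings. With TMM scaling they stood at 6795 to 26055 CPM in CSF and at 37.4 to 162 CPM in plasma, and the next highest CSF level in the family was the 474 CPM of miR-3473h-5p. The other 6 had 11 to 113 UMIs in a CSF library and 4 to 189 in a plasma library. miR-3473b and miR-3473e together held 95.6% to 98.2% of the family's UMIs in CSF, and 20.4% to 26.7% in plasma.

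**Figure D5:**
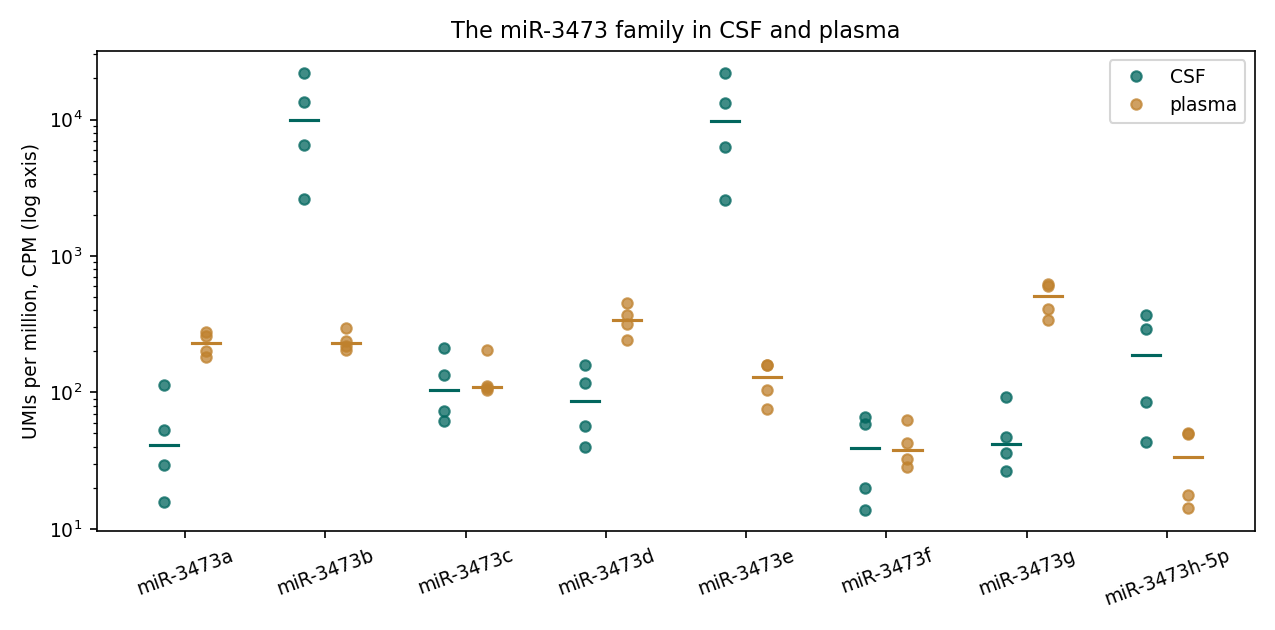
CPM of the 8 listed members of the miR-3473 family on a log axis, 1 point per library, with CSF left of plasma for each miRNA and a bar at the median of 4 libraries. miR-3473b and miR-3473e reach 2553 to 22074 CPM in CSF, while the other 6 stay between 13.9 and 372 CPM there.

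miR-3473a, whose sequence except for its last 2 bases lies within that of miR-3473b, did not have all CSF libraries above all plasma libraries in either scaling. In CPM it had 52.7 CPM in DOCA-salt females, 114 in baseline females, 15.7 in DOCA-salt males and 29.2 in baseline males in CSF, against 181, 200, 279 and 259 CPM in plasma. With TMM scaling its fluids overlapped, at 41.8 to 134 CPM in CSF and 118 to 151 CPM in plasma. In plasma it stood close to miR-3473b (219, 204, 299 and 240 CPM), and in CSF far under it. miR-3473h-5p had a geometric mean CPM in CSF 5.01 times that in plasma, with 43.4 to 372 CPM in CSF and 14.3 to 50.5 CPM in plasma. The same ratio of CPM was 0.180 for miR-3473a, 0.846 for miR-3473c, 0.240 for miR-3473d, 0.808 for miR-3473f and 0.0947 for miR-3473g, and with TMM scaling miR-3473c had 159 to 268 CPM in CSF and 53.0 to 110 CPM in plasma and miR-3473f 36.9 to 83.9 CPM in CSF and 16.8 to 31.2 CPM in plasma. None of the 6 passed edgeR's quasi-likelihood test at an adjusted p of 0.05 for treatment or sex in either fluid or for the difference of the treatment effect, and the DOCA-salt fold changes on the log2 scale ran from -0.92 to 0.54 in CSF and from -0.05 to 0.72 in plasma.

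The mature sequences of the other family members are shown because they differ from the members in their seeds. They are from RefSeq on GRCm38.p6, with bases 2 to 8 in capitals.
miR-3473c: uCUCUCCAgcccccauaauaag
miR-3473d: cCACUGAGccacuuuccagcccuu
miR-3473f: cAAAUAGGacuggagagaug
miR-3473g: cAAAAGUGaggcuggggaga
miR-3473h-5p: uAGGGGCUggaaaggugacu
miR-3473c shares a run of 12 bases with the reverse complement of miR-3473b. miR-3473f shares a run of 11 bases with miR-3473b. No seed among these is that of miR-3473b and miR-3473e.

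Of all 1675 miRNAs searched, 4 occurred whole in transcripts of at least 100 genes, a limit chosen after the counts were seen. They were miR-3470b, miR-3473b, miR-706 and miR-3473a. miR-3470b had 1.85 to 52.7 CPM in CSF and 17.8 to 63.1 CPM in plasma, and miR-706 had 18.5 to 79.9 CPM in CSF and 23.7 to 114 CPM in plasma. Of these 4, miR-3473b was the only one whose CSF levels all lay above its plasma levels, in CPM and with TMM scaling, but it was chosen on that contrast. Over 732 miRNAs with a mean of at least 20 UMIs, 5.60 percent separated so in CPM and 29.5 percent with TMM scaling. The part of the other transcripts in the level of miR-3473b was not tested.

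The miRNAs whose pattern over the 8 libraries was most like that of miR-3473b were miR-134-3p, miR-6947-5p, miR-183-5p, miR-133b-3p and miR-133a-3p, members left out. Likeness was the mean absolute difference of log2 TMM-scaled levels, each centred on its own mean, and came to 0.43, 0.47, 0.65, 0.68 and 0.70 over 728 candidates with a median of 3.37. The difference between miR-3473b and miR-3473e was 0.49. The same 5 miRNAs were nearest to miR-3473e, with miR-134-3p first at 0.35 and miR-183-5p next at 0.36. Since the fluids differ so much, this ranking rests mainly on the size of the difference between CSF and plasma. In plasma, miR-134-3p had only 2 to 6 UMIs. Within CSF alone, each centred on its CSF mean, the difference from miR-3473b was 0.16 for miR-183-5p and 0.44 to 0.97 for the others. miR-183-5p, best known from sensory hair cells and photoreceptors, had 15561 UMIs in DOCA-salt females, 19436 in baseline females, 10177 in DOCA-salt males and 13421 in baseline males in CSF, against 117, 66, 279 and 44 in plasma. Like the members, it had its lowest CSF count in the library with the highest total. miR-133a-3p, a striated muscle miRNA, had 13007, 12180, 46741 and 32559 UMIs in CSF in the same order of groups. These are unscaled counts, and their order is that of the library totals of 303625, 237878, 1082504 and 753144 UMIs.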

How the data were processed

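Small RNA of exosomes was measured in 8 libraries, 1 per fluid, sex and treatment. Per the labels' protocols, RNA was extracted with a miRNeasy Micro kit and QIAseq miRNA libraries were prepared, a kit that tags molecules with identifiers. Per the submitters' processing notes and labels, the authors used Cutadapt 2.7, Bowtie 1.3.0 and edgeR, naming GRCm38 and mm10. How reads with several matches were placed is not given in the sources used here. The deposited UMI and read columns hold counts per mature miRNA, unscaled. The deposited CPM columns hold UMI counts scaled to the library total, as recomputed.

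The members and lists were chosen with earlier results of these data known. Fits used edgeR 4.0.16 (quasi-likelihood, R 4.3.3) on UMIs that passed filterByExpr, with TMM factors, and took sex and treatment as covariates within a fluid, or ran over all 8 libraries for the difference of the treatment effect (2 residual degrees of freedom). p-values were adjusted by Benjamini-Hochberg over all miRNAs tested, with a threshold of 0.05. Their error rests mainly on the spread of the other miRNAs between libraries, since the fits within a fluid have 1 residual degree of freedom. In CSF that spread was in effect pooled over all miRNAs. That spread may be technical, since the labels do not tie libraries to separate animals. CSF against plasma was not tested. Ratios of 1 library to 1 carry exact conditional binomial intervals and shares exact Clopper-Pearson intervals, both at 95%. TMM-scaled log2 levels used a prior count of 1. Alternatives were other scalings, DESeq2 1.42.0, no count filter, reads in place of UMIs, 1 entry for both members, muscle markers left out, other model terms and each library left out. The fits were also run on simulated counts, with planted changes larger than the members' fold changes and the same spread for every miRNA. Those runs do not show how well changes of the members' size would be found. The text names the members, their family, miRNAs sharing a run of at least 12 bases, the 5 nearest in pattern among miRNAs averaging at least 20 UMIs, and tissue markers. miR-3470b, miR-706 and the pairs of equal count were named after their values were seen. Sequences are from RefSeq, matched by name. Hairpins were folded with RNAfold 2.7.2.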

Additional observations from a re-analysis of the deposited data

Results flagged for a closer look

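The DOCA-salt ratio was negative in both CSF pairs and positive in both plasma pairs for each member, and the difference of the effects, CSF minus plasma, was -1.37 on the log2 scale for miR-3473b and -2.00 for miR-3473e, neither past edgeR's adjusted threshold. The ratio of male over female CPM of miR-3473b was likewise negative in both CSF pairs and positive in both plasma pairs. The mean ratios of the fluids differed by -2.40 on the log2 scale, a difference that was not tested, and in the TMM-scaled fit the plasma value was -0.02. In 2 of 34 groups of 4 libraries, 1 library stood apart from the others, and chance alone gives about 1 in 20 groups. In one, miR-3473c had 203 CPM in plasma of DOCA-salt males. In the other, miR-3473b made up 49.7% of the UMIs of both members in CSF of baseline females, against 50.5% to 50.6% in the other CSF libraries.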

How the results depend on the processing

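With 1 library per combination, every test rests on 1 or 2 residual degrees of freedom, and plasma counts of 12 to 91 UMIs limit the ratios there. No paired analysis was possible because each group holds 1 library, that is, none by replicate number, while sex as a term already sets DOCA-salt beside baseline within each sex. Of 134 values of the members under an alternative, 129 kept their sign and their side of the threshold. With scaling to the library total, male against female in CSF passed the threshold at -2.06 for miR-3473b and -2.09 for miR-3473e, the value of miR-3473b in plasma turned to 0.34, and CSF against plasma came to 5.13 and 6.10. With TMM scaling, the DOCA-salt log2 ratios of the CSF pairs came to -0.59 and -1.24 for miR-3473b and to -0.63 and -1.24 for miR-3473e, in females and males. In a comparison of scalings chosen after seeing the data, family members with every CSF library above every plasma library numbered 5 with TMM scaling and 2 in CPM. Those with every CSF library below numbered 1 and 3. Over 732 miRNAs the shares were 29.5 and 5.60 percent above, and 24.0 and 54.8 percent below. With 1 entry for both members, DOCA-salt in plasma came to 0.37 and sex in plasma to -0.02, against 0.98 and -0.56 for miR-3473e on its own.

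Counts of all miRNAs past the threshold changed more, and where the alternative does not itself change what is tested the cause was not tested. For DOCA-salt in CSF, 2 became 4 with no count filter and 0 with DESeq2 size factors, total scaling, the DESeq2 Wald test, reads, muscle markers left out, treatment alone or a joint fit. For DOCA-salt in plasma, 15 became 29 with DESeq2 size factors or no filter, 1 with the Wald test or 1 entry for both members, and 0 with the others. For sex in CSF, 54 became 328 with total scaling, 25 with the Wald test, 34 with no filter, 5 with reads, 21 without muscle markers, 0 with sex alone and 30 in a joint fit. For sex in plasma, 2 stayed 2 with 1 entry for both members and became 5 with size factors, 10 with no filter and 0 with the others. For the difference of the treatment effect, 0 became 2 with size factors or total scaling, 1 with the Wald test and 3 with no filter.

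Each library was left out in turn, within a fluid with the tested term alone, since 3 libraries with both terms leave no residual degree of freedom. DOCA-salt in CSF ran from -1.54 to -0.35 for miR-3473b and from -1.57 to -0.37 for miR-3473e. DOCA-salt in plasma ran from 0.35 to 0.44 and from 0.65 to 1.42. Sex in CSF ran from -1.50 to -0.31 and from -1.53 to -0.34, and sex in plasma from -0.27 to 0.18 and from -1.26 to -0.003. The difference of the treatment effect ran from -1.59 to -0.94 and from -2.20 to -1.60, and CSF against plasma from 6.56 to 7.13 and from 7.42 to 8.08. Counts ran from 0 to 1, 0 to 73, 0 to 30, 0 to 28 and 0 to 3 for DOCA-salt in CSF, DOCA-salt in plasma, sex in CSF, sex in plasma and the difference. A lone library in these fits is assumed to vary like the others.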
